A study of Homo sapiens with 32 samples.

Results

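Hub anchors are 5 kb bins of the genome at which several chromatin loops end. In each of 4 lists of loops, called from in situ Hi-C maps of human cells, the loops that used exactly the same bin as either anchor were counted, and a bin was called a hub of a list when it had 3 or more loops there. The hubs were thus chosen by their number of loops, and the counts that follow from this choice are given as a description. Of 59536 bins that anchored at least 1 loop in any list, 2173 were a hub in at least 1 list.

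In situ Hi-C ligates DNA ends that lie close together in the nucleus, and a loop is a pair of distant bins that touch more often than their surroundings. The cells were HEK293, an established human embryonic kidney line that the growth protocol calls HEK293T, as wild type or carrying eGFP-YAP, a green fluorescent fusion of the transcriptional co-activator YAP. Each line was untreated or kept for 1 h in 200 mM sorbitol, a sugar alcohol that draws water out of cells. The labels name 3 wild-type control, 3 wild-type sorbitol, 4 eGFP-YAP control and 4 eGFP-YAP sorbitol samples (14 of 32 samples of the series), but each condition has a single list that carries no replicate, and the samples behind it were not given. The design text has the eGFP-YAP cells without serum for 1 h before sorbitol, names no promoter or clone for the fusion, and does not say whether their untreated samples were also starved. The wild-type and eGFP-YAP lists have different source names in their titles, so line and source cannot be told apart.

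With 1 list per condition there was no test between lists, and every interval below is a 95% Wilson interval for a share, or an order-statistic interval for a median, that covers counting error only. Bins and loops of a list come from the same pooled map and are not replicates of a condition. The lists held 15180 (wild-type control), 5906 (wild-type sorbitol), 18966 (eGFP-YAP control) and 5577 (eGFP-YAP sorbitol) loops, and the sequencing depth behind them was not given in the sources used here.

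As background, many loops form when the ring-shaped cohesin complex extrudes a strand of chromatin and halts at the zinc finger protein CTCF, whose motif has a direction and mostly faces the inside of the loop. An anchor that halts cohesin coming from 1 side can thus meet several partners on that side, seen as stripes in contact maps. Promoters and enhancers can also meet in contacts of active chromatin that need no CTCF site.

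The sequences below show the match to the CTCF core motif in 6 of the hub bins that had the most loops of a list or were hubs in most lists, because the side on which the partners lay is set against the direction of this motif further on. Each is read 5′ to 3′ from hg38 on the strand of the match, in lower case with the 14-base match in capitals and 13 bases on either side. At most 1 mismatch was allowed.
Bin within SGK1, chr6:134174119-134174132 on the plus strand: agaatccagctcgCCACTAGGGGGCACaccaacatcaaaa
Bin within TSC22D1, chr13:44438172-44438185 on the minus strand: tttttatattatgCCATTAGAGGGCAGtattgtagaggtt
Intergenic bin of chromosome 5, chr5:50963108-50963121 on the plus strand: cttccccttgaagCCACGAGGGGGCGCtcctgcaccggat
Intergenic bin of chromosome X, chrX:14032591-14032604 on the minus strand: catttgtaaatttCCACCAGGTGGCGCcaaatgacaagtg
Bin at the start of ENSG00000285938, chr3:187741032-187741045 on the plus strand: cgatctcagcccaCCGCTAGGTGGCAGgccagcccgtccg
Bin at the start of PTDSS2, chr11:448424-448437 on the minus strand: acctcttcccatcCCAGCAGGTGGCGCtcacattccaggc

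A match on the plus strand points to higher coordinates and a match on the minus strand to lower ones. In the bin within SGK1 the plus-strand match had no mismatch, and all 8 eGFP-YAP control partners lay at higher coordinates. The minus-strand match within TSC22D1 faced its 6 wild-type control partners, all at lower coordinates, and the minus-strand match of the chromosome X bin faced all of its 4, 3, 3 and 2 partners (wild-type control, wild-type sorbitol, eGFP-YAP control, eGFP-YAP sorbitol; this order holds wherever 4 values are given). Of the 6 hubs with most loops in a control list that held a match, 5 had all partners of that list on the side it faced. The bin at the start of WNT7B was the exception, since its match, on the plus strand, faced away from all 6 eGFP-YAP control partners. At the start of PTDSS2, an eGFP-YAP sorbitol hub, the minus-strand match without a mismatch faced 2 of 6 partners. Of the 30 hub bins singled out by loop number, presence in several lists or change in loop number, 11 had a match and 19 had none.

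Hubs of the sorbitol lists often lay at gene starts, and the 250 bases before the start of 6 genes that begin in hub bins are shown for that reason, from RefSeq on GRCh38.p14, 5′ to 3′ along the gene, with CpG dinucleotides in capitals. DPYSL4, CDCA4, RNF44 and SIK2 start in sorbitol hubs, and COL12A1, a collagen, and EFNB1, a ligand of Eph receptors, start in control hubs. The genes were picked among those described below, leaving out promoters that overlap an annotated untranslated region.
DPYSL4, chr10:132186698-132186947 on the plus strand: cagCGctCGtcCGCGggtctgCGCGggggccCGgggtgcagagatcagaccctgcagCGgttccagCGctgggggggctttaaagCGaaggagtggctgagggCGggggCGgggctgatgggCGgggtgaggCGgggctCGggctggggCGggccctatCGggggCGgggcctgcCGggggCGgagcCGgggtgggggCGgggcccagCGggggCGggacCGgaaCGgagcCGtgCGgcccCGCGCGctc
CDCA4, chr14:105021084-105021333 on the minus strand: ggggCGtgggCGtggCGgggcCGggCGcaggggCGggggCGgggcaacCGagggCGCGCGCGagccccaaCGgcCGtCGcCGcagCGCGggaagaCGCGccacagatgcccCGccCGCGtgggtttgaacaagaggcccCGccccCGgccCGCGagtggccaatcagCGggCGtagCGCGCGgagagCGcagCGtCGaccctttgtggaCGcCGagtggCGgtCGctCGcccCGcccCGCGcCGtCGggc
RNF44, chr5:176537403-176537652 on the minus strand: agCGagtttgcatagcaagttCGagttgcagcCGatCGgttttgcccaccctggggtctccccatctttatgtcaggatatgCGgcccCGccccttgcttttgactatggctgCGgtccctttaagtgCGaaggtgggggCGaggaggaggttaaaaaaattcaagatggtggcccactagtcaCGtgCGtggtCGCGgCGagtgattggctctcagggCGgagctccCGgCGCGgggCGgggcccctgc
SIK2, chr11:111602199-111602448 on the plus strand: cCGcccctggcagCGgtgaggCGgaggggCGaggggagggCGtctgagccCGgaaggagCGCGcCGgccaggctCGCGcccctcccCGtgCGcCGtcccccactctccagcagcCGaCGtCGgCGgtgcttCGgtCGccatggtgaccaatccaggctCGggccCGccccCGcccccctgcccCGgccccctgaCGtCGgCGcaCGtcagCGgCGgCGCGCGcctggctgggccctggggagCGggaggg
COL12A1, chr6:75206054-75206303 on the minus strand: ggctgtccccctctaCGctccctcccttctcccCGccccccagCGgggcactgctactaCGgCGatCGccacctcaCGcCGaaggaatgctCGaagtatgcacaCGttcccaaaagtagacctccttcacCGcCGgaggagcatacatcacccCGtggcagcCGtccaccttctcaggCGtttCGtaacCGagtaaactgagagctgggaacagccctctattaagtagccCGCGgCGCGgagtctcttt
EFNB1, chrX:68828771-68829020 on the plus strand: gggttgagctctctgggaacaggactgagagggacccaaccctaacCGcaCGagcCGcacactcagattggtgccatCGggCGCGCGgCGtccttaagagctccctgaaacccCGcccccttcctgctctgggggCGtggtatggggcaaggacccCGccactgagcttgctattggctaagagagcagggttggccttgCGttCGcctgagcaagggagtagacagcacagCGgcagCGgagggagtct

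These stretches held 31, 45, 19, 34, 21 and 15 CpG dinucleotides in the order shown. Over all promoters of the RefSeq table, 15316 promoters of 300 bases matched protein-coding genes, and their median was 22 CpG dinucleotides. The medians were 19 (27 of 32 genes matched), 31 (57 of 71), 24 (85 of 119) and 27 (118 of 152) for genes starting in hubs of the 4 lists, and 23, 28, 25 and 28 for genes starting in bins with 1 loop. The intervals of the hub medians took in these values. The letters CCGGAAG, the core of an ETS factor site, read on both strands, occurred in 11.1%, 19.3%, 18.8% and 19.5% of hub promoters, against 14.4% of all promoters. For AAGATGGC, the core of a YY1 site, also on both strands, the shares were 0%, 1.75%, 2.35% and 9.32% against 3.98%. The intervals took in the share of all promoters, except for AAGATGGC in eGFP-YAP sorbitol (5.29% to 15.9%), where bins with 1 loop had 7.17% (6.02% to 8.52%). A match is a string of letters and no proof of a bound factor.

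Hubs were a small part of each list. Wild-type control held 548 hubs among 26523 anchor bins (2.07%, 1.90% to 2.24%) and wild-type sorbitol 142 among 10615 (1.34%, 1.14% to 1.57%). In eGFP-YAP cells the numbers were 1439 of 30191 (4.77%, 4.53% to 5.01%) in control and 219 of 9691 (2.26%, 1.98% to 2.58%) with sorbitol. The shares were lower in the sorbitol list of both lines, and higher in eGFP-YAP than in wild type. Loops with at least 1 hub anchor made up 11.3%, 7.21%, 23.2% and 11.6% of the lists. Just inside the threshold, 468, 119, 1132 and 179 bins had exactly 3 loops; just outside it, 2636, 888, 4473 and 969 had 2. The most loops at a bin were 8, 5, 8 and 6.

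The lists differed in length, and this bears on the number of hubs. When every list was shortened to its 5577 loops with the highest peak score, which the loop caller gives to each loop, the order of control and sorbitol turned in both lines: there were 82 hubs in wild-type control against 137 in wild-type sorbitol, and 143 in eGFP-YAP control against 219 in eGFP-YAP sorbitol. The plot of loops per bin and of hubs in full and shortened lists shows both counts.

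**Figure D1:**
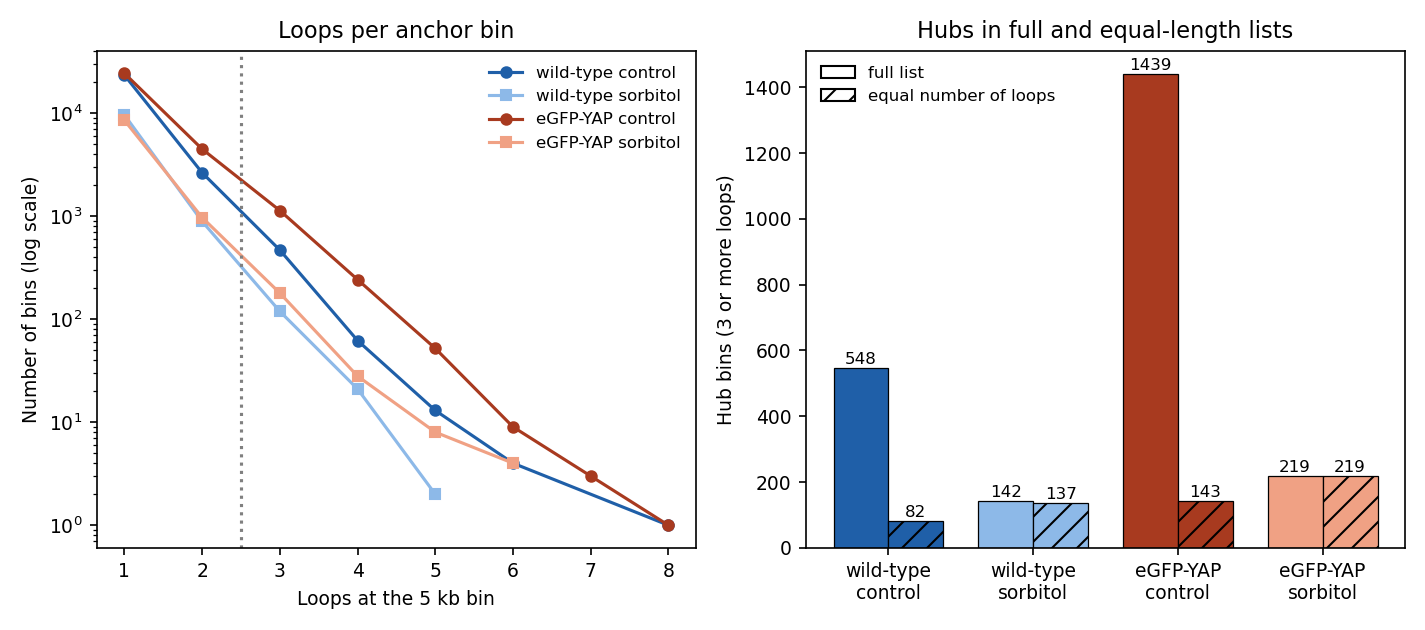
Left, number of 5 kb bins (log scale) by the number of loops ending at the bin, for the 4 lists, with the hub threshold of 3 loops marked by the dotted line. Right, hub bins in the full lists (plain bars) and in lists of 5577 loops each (hatched bars): control has more hubs in full lists (548 against 142, 1439 against 219), and fewer in lists of equal length (82 against 137, 143 against 219).

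Partners of control hubs lay mostly on 1 side. In wild-type control 486 of 548 hubs (88.7%, 85.8% to 91.1%) had all their partners at lower or all at higher coordinates, and in eGFP-YAP control 1212 of 1439 (84.2%, 82.3% to 86%). With sorbitol these shares were 54.9% (78 of 142, 46.7% to 62.9%) in wild type and 41.6% (91 of 219, 35.2% to 48.2%) in eGFP-YAP, so the intervals of control and sorbitol did not overlap in either line. Both sides served alike: 233 wild-type control hubs had all partners at higher and 253 at lower coordinates, and in eGFP-YAP control it was 590 and 622. Bins with 2 loops showed the same order with a smaller gap (87.6%, 66.1%, 87.0% and 70.7%), although with fewer partners they fall on 1 side more easily. In lists of equal length the shares at hubs were 91.5%, 54.0%, 88.8% and 41.6%.

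The reach of a hub, from its lowest to its highest bin, had a median of 515 kb (495 to 550), 522.5 kb (455 to 585), 555 kb (540 to 590) and 480 kb (450 to 515). Neighbouring partners of a hub were at least 30, 30, 25 and 30 kb apart, with median gaps of 110, 95, 110 and 95 kb, so no hub arose from the same partner called at adjacent bins. Loops with a hub anchor spanned a median of 320, 267.5, 330 and 240 kb, against 210, 210, 230 and 225 kb for loops whose anchors each had 1 loop. Their peak scores stood at a median percentile of 57.1, 69.9, 58.6 and 63.2 of their own list, against 46.4, 46.1, 40.4 and 46.1.

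Within each line, the partners of a hub were more often hubs in the sorbitol list. Of all partners of a hub, 4.12% (wild-type control), 11.1% (wild-type sorbitol), 12.7% (eGFP-YAP control) and 18.0% (eGFP-YAP sorbitol) were hubs of the same list, in lists whose length differed. Counted over all loops, those with hubs at both anchors made up 0.237%, 0.423%, 1.58% and 1.15%, so in eGFP-YAP this share was lower with sorbitol. The largest sets of bins joined by loops held 16, 20, 19 and 20 loops. In wild-type sorbitol this set ran over chr10:132155001-133395000 with 5 hubs and the starts of DPYSL4, STK32C, LRRC27, INPP5A, ECHS1, MTG1 and PAOX. In eGFP-YAP sorbitol it ran over chr21:44295001-46640000 with 6 hubs and the starts of 9 genes, among them SUMO3, a protein tag, COL6A1 and COL18A1, which encode collagens, and PCBP3. The largest sets of the control lists, at chr6:1595001-2700000 and chr10:27365001-28385000, held 5 and 6 hubs, and no protein-coding gene started in their bins. Starts were counted in the bins of a set and not over its whole interval. FOXC1, for example, starts inside the chromosome 6 interval but not in a bin of the set.

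Gene starts set the hubs of sorbitol lists apart from those of control lists. A protein-coding gene started in 58 of 142 wild-type sorbitol hubs (40.8%, 33.1% to 49.1%) and in 114 of 219 eGFP-YAP sorbitol hubs (52.1%, 45.5% to 58.6%). In the control lists it was 32 of 548 hubs (5.84%, 4.17% to 8.13%) and 109 of 1439 (7.57%, 6.32% to 9.06%). The control intervals took in the shares of bins with 1 loop, 5.58% and 7.55%, while sorbitol hubs stood above bins with 1 loop of the same lists, at 17.9% (17.2% to 18.7%) and 20.4% (19.5% to 21.2%). Over all 581574 bins of the genome without unknown bases the share was 3.07%. Median GC content followed the same order, at 42.7%, 48.6%, 42.8% and 52.9% of bases in hubs.

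The CTCF motif gave the opposite picture. It was found in 220 of 548 wild-type control hubs (40.1%, 36.1% to 44.3%) and 797 of 1439 eGFP-YAP control hubs (55.4%, 52.8% to 57.9%), against 21.4% and 25.8% of bins with 1 loop and 8.69% of the genome's bins. At sorbitol hubs it was found in 32 of 142 (22.5%, 16.4% to 30.1%) and 67 of 219 (30.6%, 24.9% to 37.0%), and these intervals took in the shares of bins with 1 loop, 20.6% and 27.0%. Moved by 5 kb to either side, the wild-type control hubs held a match in 21.0% and 25.7% and the eGFP-YAP control hubs in 15.8% and 17.8%, below the share in the called bin. Sorbitol hubs moved in the same way held it in 20.4% and 13.4% in wild type and in 20.5% and 25.1% in eGFP-YAP, with intervals that overlapped those of the called bin. Moved by 100 kb, the values for wild-type control were 8.03% and 6.76% and for eGFP-YAP control 9.45% and 9.66%, near the share of the genome, and for sorbitol hubs 8.45% and 12.1% in wild type and 14.6% and 16.4% in eGFP-YAP.

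**Figure D2:**
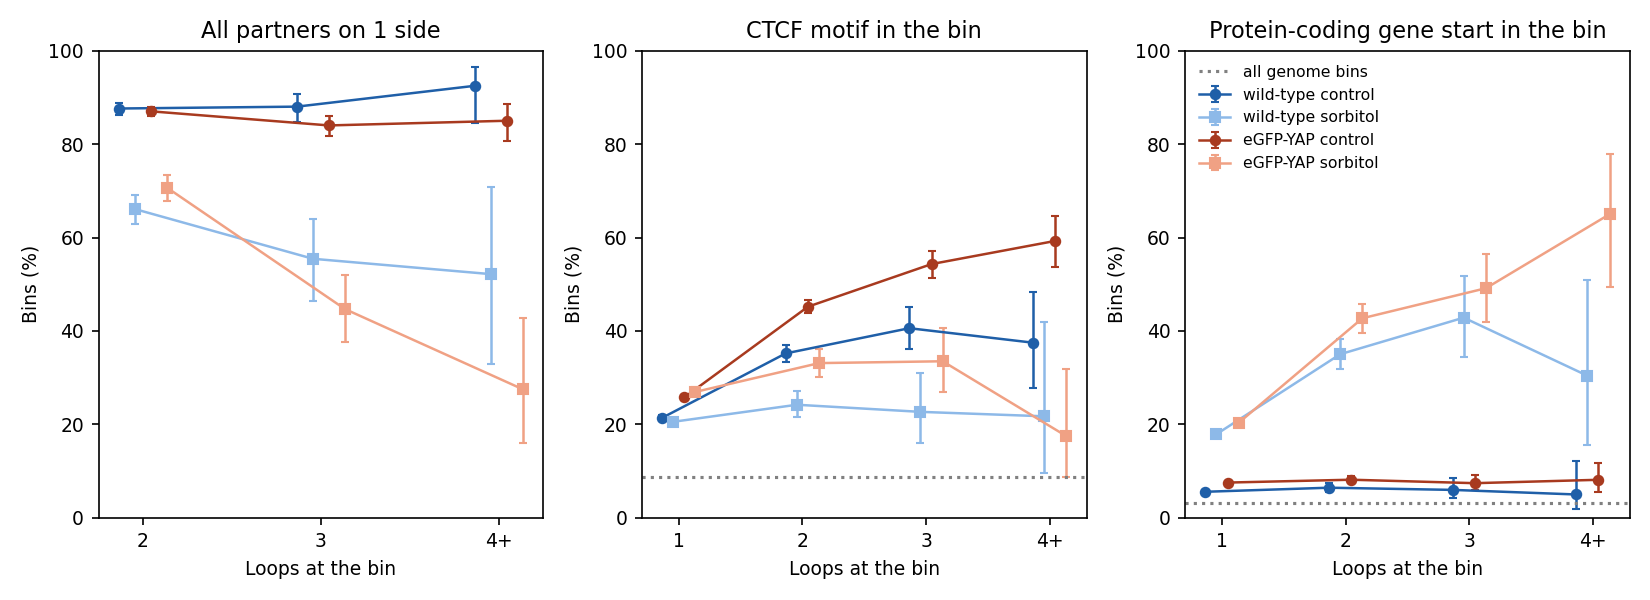
Share of bins (%) with all partners on 1 side (left), with a CTCF motif (middle) and with a protein-coding gene start (right), by loops at the bin, for the 4 lists; bars are 95% Wilson intervals for counting error and dotted lines the share of all genome bins (8.69% and 3.07%). At bins with 4 or more loops, all partners lie on 1 side in 92.5% and 85.0% of control bins and in 52.2% and 27.5% of sorbitol bins, and eGFP-YAP sorbitol bins reach 65.0% with a gene start.

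Where a bin held the CTCF match on a single strand, the match pointed to the partner at 598 of 664 loop ends of wild-type control hubs (90.1%, 87.5% to 92.1%) and at 2244 of 2463 of eGFP-YAP control hubs (91.1%, 89.9% to 92.2%). At bins with 1 loop it was 79.3% (78.1% to 80.4%) and 82.1% (81.2% to 83.1%). Sorbitol hubs reached 74.5% (73 of 98 ends, 65.0% to 82.1%) and 72.4% (134 of 185, 65.6% to 78.4%), against 68.2% and 75.5% at their bins with 1 loop. With matches that had no mismatch the differences between control hubs and control bins with 1 loop were smaller. Control hubs then stood at 94.8% (91.0% to 97.1%) and 92.9% (90.9% to 94.5%) against 90.3% (88.4% to 91.9%) and 90.3% (88.6% to 91.8%) at bins with 1 loop, with overlapping intervals. Sorbitol hubs stood at 94.7% (18 of 19 ends, 75.4% to 99.1%) and 85.7% (54 of 63, 75.0% to 92.3%), and these intervals overlapped those of control hubs. They also took in the shares of sorbitol bins with 1 loop, 88.1% and 88.4%. Among control hubs with all partners on 1 side and the match on a single strand, 174 of 185 in wild type (94.1%) and 602 of 625 in eGFP-YAP (96.3%) had the match facing that side. Loop ends of the same hub share its match and were not independent. Partners on both sides were seen at 11% of wild-type control hubs without a match and at 11.5% of those with it on a single strand. With sorbitol the shares without and with a match on a single strand were 49.1% (39.9% to 58.3%) and 29.0% (16.1% to 46.6%) in wild type, with overlapping intervals. In eGFP-YAP they were 67.1% (59.3% to 74.1%) and 39.7% (28.1% to 52.5%), and the intervals did not overlap.

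**Figure D3:**
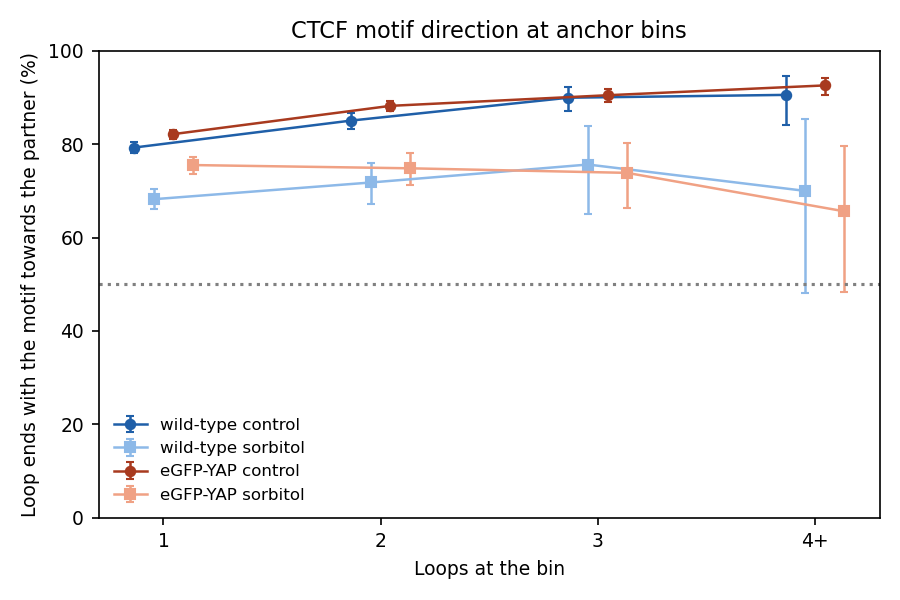
Share of loop ends (%) at which the CTCF match of the bin points to the partner, by loops at the bin, for the 4 lists, over bins with matches on a single strand; bars are 95% Wilson intervals for counting error and the dotted line marks 50%. The control lists rise from 79.3% and 82.1% at bins with 1 loop to 90.1% and 91.1% over all hubs, and in the sorbitol lists the intervals of hubs and of bins with 1 loop overlap. Matches without a mismatch, not plotted, gave 90.3% and 90.3% at control bins with 1 loop and 94.8% and 92.9% at control hubs, with overlapping intervals.

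Partners of sorbitol hubs were themselves often gene starts. At hubs with a gene start, a gene also started in the partner bin at 72 of 182 loop ends in wild-type sorbitol (39.6%, 32.7% to 46.8%) and at 220 of 381 in eGFP-YAP sorbitol (57.7%, 52.7% to 62.6%). In the control lists it was 7 of 102 (6.86%, 3.36% to 13.5%) and 45 of 357 (12.6%, 9.56% to 16.5%). For bins with 1 loop and a gene start the shares were 40.0% and 46.4% with sorbitol, so in wild type the hubs did not exceed them. Sorbitol hubs at gene starts had partners on both sides in 53.4% (40.8% to 65.7%) and 74.6% (65.9% to 81.7%), and those away from gene starts in 39.3% (29.5% to 50%) and 41.0% (32.0% to 50.5%). Where the genes of a hub start on a single strand, 44.1% (34.9% to 53.8%), 55.5% (47.4% to 63.3%), 60.7% (55.4% to 65.7%) and 51.5% (45.9% to 57.1%) of loop ends lay downstream of the start, so the eGFP-YAP control interval alone left out an even split.

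Hubs were found again at the identical bin more often than other bins. Of the wild-type control hubs 127 of 548 (23.2%, 19.8% to 26.9%) anchored at least 1 loop in the wild-type sorbitol list, against 8.6% of all wild-type control anchor bins. Of the eGFP-YAP control hubs 409 of 1439 (28.4%, 26.2% to 30.8%) anchored a loop in the sorbitol list, against 10.5% of all anchor bins. In the other direction 59 of 142 wild-type sorbitol hubs (41.5%, 33.8% to 49.8%) and 102 of 219 eGFP-YAP sorbitol hubs (46.6%, 40.1% to 53.2%) anchored a loop in the control list of their line, against 21.5% and 32.8% of all anchor bins. The longer control list offers more bins to be met, so the directions are not compared.

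Between the lines the return was higher still. Of the wild-type control hubs 399 (72.8%, 68.9% to 76.4%) anchored a loop in the eGFP-YAP control list, against 32.9% of all wild-type control anchor bins, and of the eGFP-YAP control hubs 927 (64.4%, 61.9% to 66.9%) did so in the wild-type list, against 28.9%. With sorbitol it was 88 of 142 wild-type hubs (62.0%, 53.8% to 69.5%) against 21.4%, and 139 of 219 eGFP-YAP hubs (63.5%, 56.9% to 69.6%) against 23.5%. For hubs of all 4 lists the share met in the other line's list of the same treatment was above the share met in the same line's other list, with intervals that did not overlap at the identical bin. For control hubs the other line's list was also far longer than the sorbitol list and offers more bins to be met. In lists of equal length, 56.6% of eGFP-YAP control hubs were met in the other line and 40.6% (32.9% to 48.8%) with sorbitol, a smaller gap. For sorbitol hubs the gap was larger than in full lists. Of these, 63.5% in wild type and 63.5% in eGFP-YAP were met in the other line. In their own line's control list it was 22.6% and 22.8%. Within 10 kb, 97.1% of wild-type control hubs had a loop anchor in the eGFP-YAP control list and 49.3% in the wild-type sorbitol list. For wild-type sorbitol hubs it was 83.8% (76.9% to 89.0%) in the other line and 73.9% (66.2% to 80.5%) in the same line, with overlapping intervals.

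**Figure D4:**
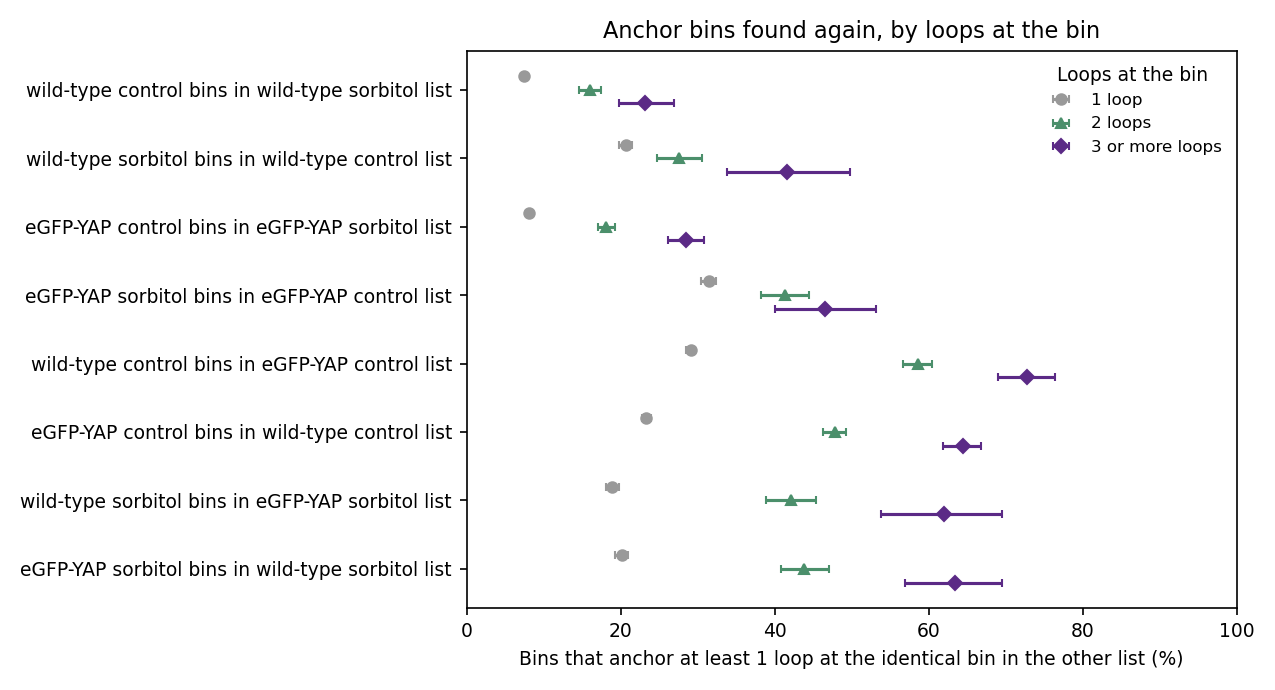
Share of anchor bins (%) that anchor at least 1 loop at the identical bin in another list, for bins with 1 loop, 2 loops and 3 or more loops, in 8 directed comparisons; bars are 95% Wilson intervals for counting error. In each comparison bins with 3 or more loops lie farthest to the right, for example 72.8% of wild-type control hubs in the eGFP-YAP control list, against 29.1% of bins with 1 loop.

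Meeting a loop again does not mean meeting the same partner. Of the 1713 wild-type control loops with a hub anchor, 158 (9.22%, 7.94% to 10.7%) were called again with sorbitol with both anchors within 10 kb, and of 4408 in eGFP-YAP 599 (13.6%, 12.6% to 14.6%). Loops whose anchors each had 1 loop were called again in 6.43% (5.94% to 6.96%) and 5.79% (5.30% to 6.33%). From sorbitol to control the order within 10 kb was the opposite: sorbitol loops with a hub anchor were called in control in 18.8% (15.4% to 22.8%) for wild type and 24.7% (21.5% to 28.1%) for eGFP-YAP, and loops whose anchors each had 1 loop in 21.3% (20% to 22.6%) and 32.4% (30.9% to 34.0%). The intervals overlapped in wild type and not in eGFP-YAP. This order depended on the distance. At identical bins it was 3.52% against 2.10% in wild type and 7.70% against 7.84% in eGFP-YAP, with overlapping intervals. Within 25 kb it was 33.6% against 39.2% and 37.9% against 48.2%. Where a control hub still had an anchor within 10 kb with sorbitol (270 and 722 hubs), 19.3% and 27.8% of its loops were matched, and all of them at 2 and 8 hubs. Even between the control lists, 44.5% of the loops of such wild-type hubs were matched in eGFP-YAP.

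Most hubs were a hub of a single list. Of the 2173 hubs, 2004 (92.2%) were a hub of a single list, 163 of 2 lists, 6 of 3 and none of all 4. The control lists shared 120 hubs (21.9% of wild-type and 8.34% of eGFP-YAP hubs), of which 61 held the CTCF motif and 8 a gene start. The sorbitol lists shared 13 (9.15% and 5.94%), of which none held the motif and 8 a gene start. Wild-type control and sorbitol shared 9 (1.64% and 6.34%), and the eGFP-YAP lists 22 (1.53% and 10.0%), 16 of the latter with the motif. Anchor bins at large were hubs of the other list less often. Of all anchor bins, 3.495% of wild-type control and 1.32% of eGFP-YAP control were hubs of the other control list. Between the sorbitol lists it was 1.31% (wild type) and 0.908% (eGFP-YAP). Within wild type it was 0.222% (control bins) and 1.196% (sorbitol bins), and within eGFP-YAP 0.338% and 4.22%. Partners lay on 1 side, and on the same side in both lists, at 106 of the 120 shared control hubs and at 19 of the 22 shared eGFP-YAP hubs, but at 5 of the 13 shared sorbitol hubs; partners on both sides in both lists were seen at 5, 2 and 7.

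The 13 hubs shared by the sorbitol lists were few enough to name by their genes. SNAP47, a SNARE protein, KLF11, a transcriptional repressor, STK25, a kinase of the Golgi, RNF44, a RING finger protein, DPYSL4, a member of the collapsin response mediator family, INPP5A, SIK2, a kinase of the salt-inducible family, and SUMO3 start in 8 of them; 3 lie within DNPEP, MGAT1 and MXI1, and 2 outside protein-coding genes. Of the 13, 8 had no loop in wild-type control, 9 had none in eGFP-YAP control, and 6 had none in either. Such absence was common: 78.5% of all wild-type and 67.2% of all eGFP-YAP sorbitol anchor bins had no loop in their line's control list. For all sorbitol hubs it was 58.5% and 53.4%. RNF44 and SUMO3 each had 0, 3, 0 and 3 loops, with 2 partners at lower and 1 at higher coordinates in both sorbitol lists. KLF11 had 0, 3, 1 and 4 loops, and SIK2 had 1, 3, 2 and 3.

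INPP5A, an enzyme that removes a phosphate from inositol trisphosphate and so ends calcium signals, was among the bins with most loops of both sorbitol lists. Its bin at chr10:132535001-132540000 had 0, 5, 2 and 6 loops. All sorbitol partners lay at lower coordinates, 90 to 380 kb away in wild type and 85 to 380 kb away in eGFP-YAP, and none of them lay within INPP5A itself. They included the start of LRRC27 and STK32C in wild type and the start of DPYSL4 in eGFP-YAP, and 2 partner bins, within JAKMIP3 and STK32C, were identical in both lists. The control partners in eGFP-YAP lay 75 kb below and 100 kb above. DPYSL4 itself, at chr10:132185001-132190000, had 0, 4, 0 and 4 loops, all to higher coordinates.

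The other eGFP-YAP sorbitol hubs with most loops also lay at genes. PTDSS2, a phosphatidylserine synthase, at chr11:445001-450000 had 1, 0, 0 and 6 loops, and a gene started in all 6 partner bins: BET1L with RIC8A, PSMD13 with SIRT3, RNH1, PHRF1, EPS8L2 and PNPLA2. The wild-type sorbitol list had no loop at this bin and 1 within 10 kb. PCBP3, a protein that binds cytosine-rich RNA, at chr21:45640001-45645000 had 1, 2, 0 and 6 loops, reaching from 1300 kb below to COL6A1 340 kb above. CDCA4 at chr14:105020001-105025000 had 0, 2, 1 and 6, with 3 partners on each side in eGFP-YAP sorbitol. FGFR4, a fibroblast growth factor receptor, at chr5:177085001-177090000 had 0, 2, 0 and 5, and shared the partner at the start of TSPAN17 between the sorbitol lists. ARMC5 at chr16:31455001-31460000 had 0, 1, 0 and 5, with partners that included the starts of SETD1A, a histone methyltransferase, and ZNF646 with ZNF668. PCBP3, PTDSS2, FGFR4 and ARMC5 were also picked as the eGFP-YAP hubs with the largest rise from control to sorbitol. The absence of eGFP-YAP control loops at their bins therefore follows from that choice. Of all eGFP-YAP sorbitol anchor bins, 67.2% had no eGFP-YAP control loop at the identical bin. Within 10 kb the eGFP-YAP control list had 3 loops at ARMC5 and 2 at PCBP3.

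In wild-type sorbitol the hub at CBX3, the heterochromatin protein HP1 gamma, and HNRNPA2B1, an RNA-binding protein, chr7:26200001-26205000, had 0, 4, 1 and 2 loops. Its far partners lay 925 and 980 kb away at the HOXA genes, which pattern the body axis, within HOXA3 and HOXA4 and at the start of HOXA10; in eGFP-YAP sorbitol a loop of 945 kb also ended within HOXA3 and HOXA6, and in the control lists no loop of this bin reached the HOXA genes. The bin at the start of CDCA8, a subunit of the chromosomal passenger complex, and C1orf109, chr1:37690001-37695000, had 0, 4, 0 and 1 loops, and the partner 320 kb above within UTP11 was the same in both sorbitol lists. Within 10 kb of it the control lists had 3 and 4 loops, so the region was not free of loops before sorbitol. Hubs within SLC25A21 (0, 5, 1 and 0 loops) and within FOXP2, a forkhead transcription factor (1, 4, 0 and 0), had no eGFP-YAP sorbitol loop at the bin. The bins at INPP5A, CBX3, CDCA8 and SLC25A21 were also picked as the wild-type hubs with the largest rise from control to sorbitol. The absence of wild-type control loops at them, also to the HOXA genes, therefore follows from that choice. Of all wild-type sorbitol anchor bins, 78.5% had no wild-type control loop at the identical bin.

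Control hubs with most loops lay mainly within or outside genes. The bin within SGK1, a kinase gene that cells induce when they shrink, at chr6:134170001-134175000 had 2, 1, 8 and 1 loops, with eGFP-YAP control partners 280 to 765 kb above. Within 10 kb, wild-type control had 9 loops there too, so the difference of 2 and 8 loops at the bin lay in the exact bin called. The bin chr6:139375001-139380000, outside protein-coding genes, had 8, 0, 3 and 0 loops, all upward, with 8 wild-type control partners 205 to 710 kb away. Likewise outside genes, chr6:136220001-136225000 had 6, 0, 7 and 0 loops, all downward, some ending within PDE7B, a phosphodiesterase, and chr1:227435001-227440000 had 3, 0, 7 and 0. Within AKAP6, which anchors protein kinase A, chr14:32580001-32585000 had 6, 0, 2 and 0 loops; most wild-type control partners lay within the neighbouring gene NPAS3, and the farthest, 1725 kb away, within EGLN3. WNT7B, a secreted Wnt ligand, at chr22:45975001-45980000 had 2, 0, 6 and 1 loops and was the gene start with most loops in eGFP-YAP control. The bin within TSC22D1, at chr13:44435001-44440000, had 6, 2, 2 and 2 loops, and 1 wild-type sorbitol loop ended at the same partner bin, 535 kb below, as in wild-type control. Of these bins SGK1, WNT7B and TSC22D1 had a loop in a sorbitol list. The others had none, but were also picked for the largest fall from control to sorbitol, so this follows from the choice. Within 10 kb, chr6:136220001-136225000 had 1 wild-type and 2 eGFP-YAP sorbitol loops. There were 2 eGFP-YAP loops near chr6:139375001-139380000 and 1 wild-type loop near AKAP6. Of all control hubs, 76.8% (wild type) and 71.6% (eGFP-YAP) had no sorbitol loop at the identical bin.

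A few hubs were kept across treatments. ERN1, the IRE1 alpha sensor of the unfolded protein response, at chr17:64130001-64135000 had 3, 1, 4 and 4 loops and was a hub in 3 lists. Its control partners all lay at lower coordinates, 70 to 225 kb away, whereas with sorbitol the eGFP-YAP list had 2 partners below and 2 above, among the latter the start of SMURF2, a ubiquitin ligase, 530 kb away. The bin chrX:14030001-14035000 had 4, 3, 3 and 2 loops, all downward, and a partner about 520 kb away was called in all 4 lists (520, 520, 525 and 525 kb). The bin chr20:50185001-50190000 had 3, 1, 3 and 3 loops, all upward towards PTPN1, a tyrosine phosphatase.

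**Figure D5:**
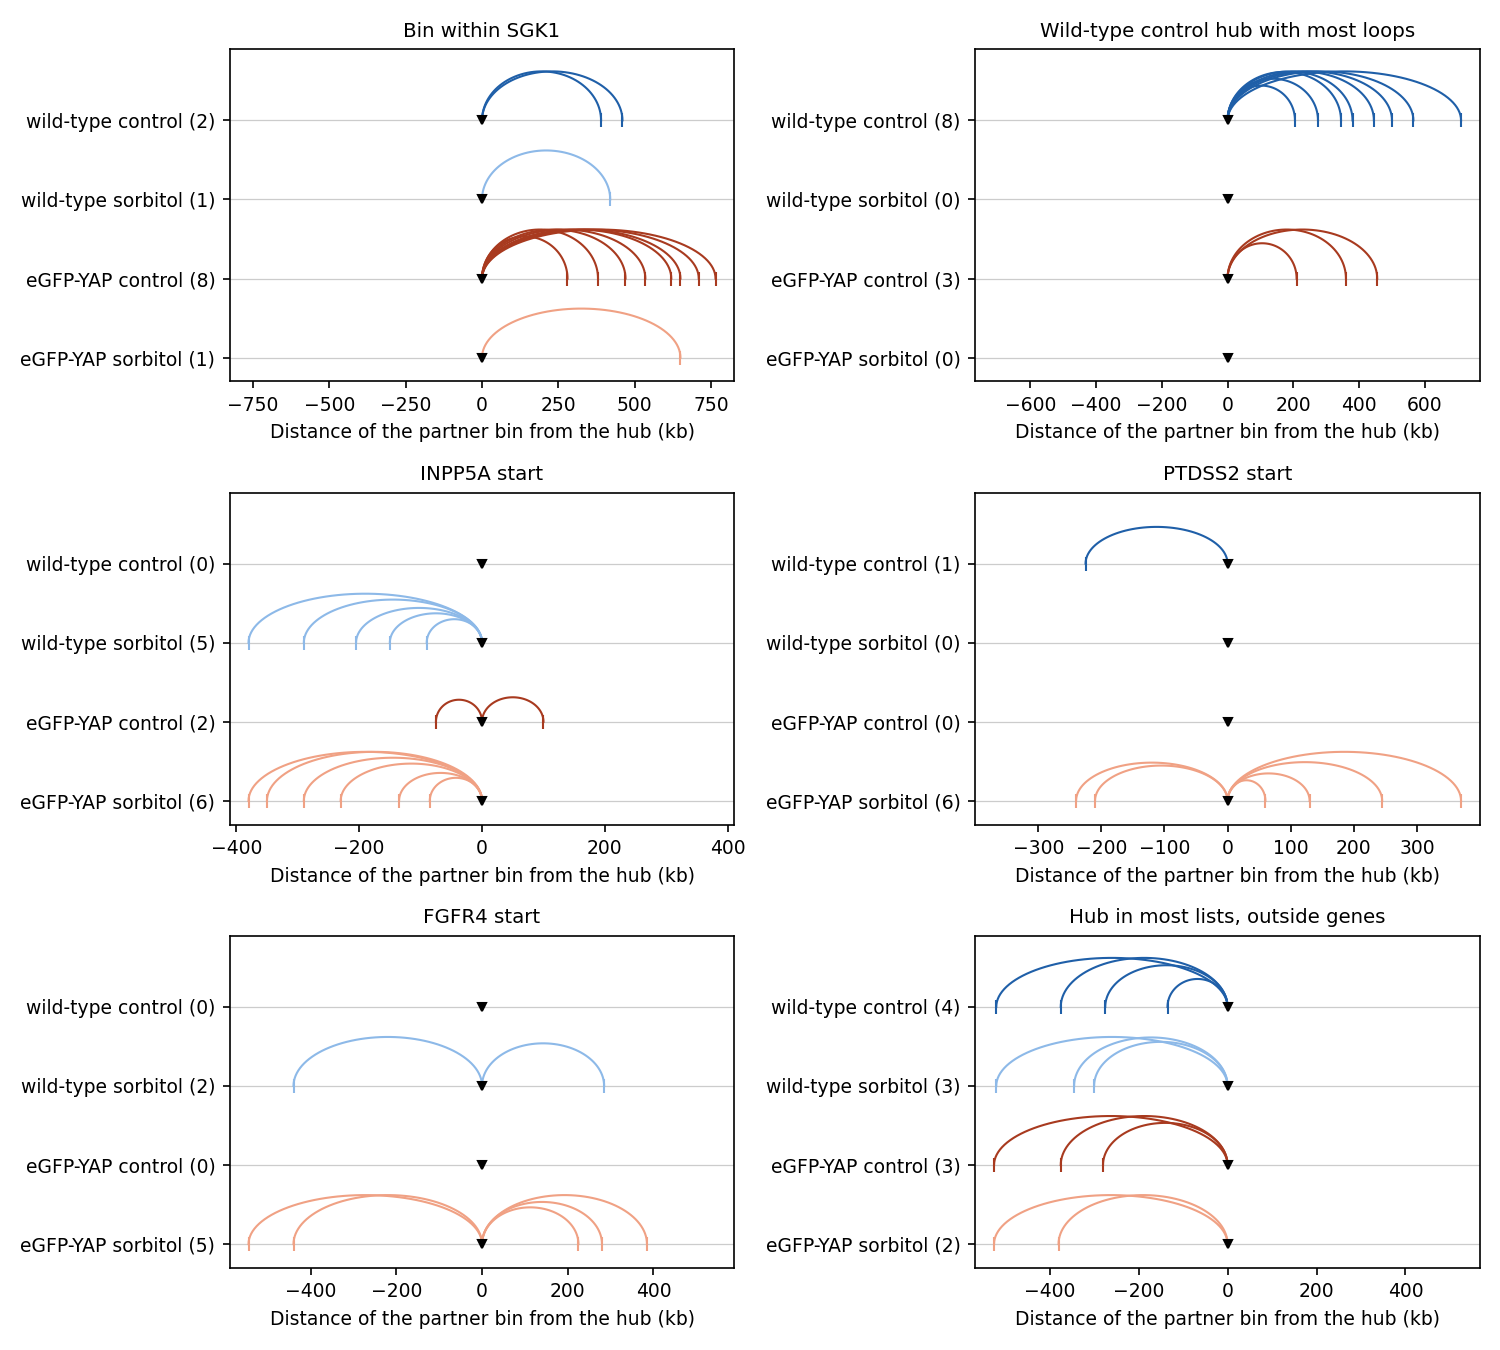
Loops of 6 hub bins in the 4 lists, drawn as arcs from the hub (triangle) to each partner bin (tick), with the distance in kb on the horizontal axis and the number of loops in parentheses; arc height has no unit. The SGK1 bin and the wild-type control hub with most loops reach to 1 side only (8 partners each), INPP5A has most partners with sorbitol (5 and 6), PTDSS2 and FGFR4 reach to both sides in eGFP-YAP sorbitol, and the last bin keeps a partner near 520 kb in all lists.

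Counted over genes, 32, 71, 119 and 152 protein-coding genes started in a hub of the 4 lists (0.160%, 0.356%, 0.596% and 0.761% of 19970). Within each line the sorbitol list thus had more genes at hubs than the control list, although it had fewer hubs. Hubs of wild-type control with gene starts included HOXD12, FOXC2 and MECOM, transcription factors of development, EFNB1 and TLE4, a co-repressor, with 3 loops each, and ZNF503 and NRP2, a receptor for semaphorins, with 4. In eGFP-YAP control, HOXB8, TTR, the carrier of thyroid hormone, and OLFML3 had 5, and TFAP2B, COL12A1, APOA5 and INHBE had 4. TLE4 also had 3 wild-type sorbitol loops. Wild-type sorbitol hubs with 4 loops held JOSD1, a deubiquitinase, QSOX2, and DEPDC5, a brake on mTORC1, and hubs with 3 loops NCAPG, a condensin subunit, and TLE1. In eGFP-YAP sorbitol, ACTR1A with SUFU, an inhibitor of Hedgehog signalling, and MRPL55 with C1orf35 had 5.

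Few genes of the pathway and family lists started in hubs. Of 40 genes of the YAP and Hippo list, none, CRIM1, AMOTL2 with FJX1, and none started in a hub of the 4 lists. Of 29 osmotic stress genes it was LRRC8C, a subunit of the volume-regulated anion channel, in eGFP-YAP control alone. Of 36 immediate-early and stress genes 2, 6, 5 and 11 (5.56%, 16.7%, 13.9% and 30.6%) started in an anchor bin and none in a hub. HOX genes gave HOXD12 in wild-type control and HOXB8, HOXD12 and HOXD13 in eGFP-YAP control, of 39, and none with sorbitol. Of 84 ribosomal protein genes 4, 19, 9 and 26 (4.76%, 22.6%, 10.7% and 31.0%) started in an anchor bin and none in a hub. Of all protein-coding genes 8.28%, 12.7%, 13.1% and 13.7% started in an anchor bin and under 1% in a hub, so lists of this size with no gene at a hub are near the background. HOX genes at hubs made up 2.56% of their list in wild-type control and 7.69% in eGFP-YAP control. For YAP and Hippo genes it was 2.5% in wild-type sorbitol and 5% in eGFP-YAP control. These shares stood above those of all genes (0.160%, 0.356%, 0.596% and 0.761%), but rest on 1 to 3 genes each. Among 20 cohesin, CTCF and loop factor genes, PDS5A, a regulator of cohesin, was the sole gene at a hub, in eGFP-YAP control.

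Sorbitol hubs with and without a control loop nearby were set side by side. Of the 37 wild-type and 58 eGFP-YAP sorbitol hubs with no control loop within 10 kb, 23 (62.2%, 46.1% to 75.9%) and 35 (60.3%, 47.5% to 71.9%) held a gene start, and 5 (13.5%, 5.91% to 28.0%) and 7 (12.1%, 5.97% to 22.9%) a CTCF motif. Of the 105 and 161 with a control loop there, 33.3% (25% to 42.8%) and 49.1% (41.5% to 56.7%) held a gene start and 25.7% (18.3% to 34.8%) and 37.3% (30.2% to 45.0%) the motif. Partners lay on both sides at 70.3% (54.2% to 82.5%) and 70.7% (58.0% to 80.8%) of the former and at 36.2% (27.6% to 45.7%) and 54.0% (46.3% to 61.6%) of the latter. The intervals did not overlap for gene starts and for both sides in wild type and for the motif in eGFP-YAP, and overlapped in the other 3 contrasts. Control hubs with and without a sorbitol loop within 10 kb held the motif in 41.9% and 38.5% in wild type and in 60.4% and 50.3% in eGFP-YAP.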

How the data were processed

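In situ Hi-C libraries were cut with MboI, per the labels' protocols. The authors deposited 1 loop list per condition, which the file headers and list titles tie to the loop caller SIP; its version and settings, the aligner and the replicates used were not given in the sources used here. hg38 and GRCh38 are among the builds in the submitters' processing notes. Each deposited loop has anchor coordinates, a peak score without fixed scale, used for ranks within a list, a deposited contact value (a score of unstated scale, not used) and the caller's probability of enrichment, a deposited fraction that was not filtered further. No column lacked a group (0 columns).

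Bins were counted with Python 3 scripts (NumPy, SciPy), tested on simulated lists with planted hubs. Gene starts came from GENCODE release 44 and CTCF matches (core motif of 14 bases, at most 1 mismatch, both strands) from hg38. Order-statistic intervals were used for medians and Wilson intervals (95%) for shares. Reads per list being unknown, precision rests on the numbers of bins and loops. Alternatives were another threshold, scores, equal list lengths, merged partners, neighbouring bins, matching distance, motif mismatches, wider bins and gene types. Named hubs were the 6 bins with most loops per list, the 8 hubs in most lists and the 4 largest differences each way per line, ties settled by score; named genes start in or contain them, start in the hubs with most loops, or belong to the gene lists. Shared hubs were added after their values were seen. The members and lists were chosen with earlier results of these data known. The other 18 samples were not analysed here. Results at some genes are not reported here.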

Additional observations from a re-analysis of the deposited data

Results flagged for a closer look

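In 4 of 18 measures of the hubs, sorbitol minus control had opposite signs in wild type and eGFP-YAP. With 1 list per condition, none of these differences between the lines was tested. The share of loops with hubs at both anchors differed by 0.186 percentage points in wild type (0.237% in control, 0.423% with sorbitol) and by -0.429 in eGFP-YAP (1.58%, 1.15%). The median reach of a hub differed by 7.5 kb (515 and 522.5 kb) and by -75 kb (555 and 480 kb). The share of hubs within 50 kb of another hub differed by 0.162 percentage points (10.4%, 10.6%) and by -5.08 (10.6%, 5.48%). The share of loop ends downstream of the gene start at hubs differed by 11.4 percentage points (44.1%, 55.5%) and by -9.20 (60.7%, 51.5%). For the last measure the intervals of control and sorbitol overlapped in both lines, and for the reach they overlapped in wild type.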

How the results depend on the processing

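Of the recomputed values, 100 moved beyond the counting interval, or by over 1.5 times for a count, and are given here. Values are given in the order wild-type control, wild-type sorbitol, eGFP-YAP control, eGFP-YAP sorbitol. Merging partners within 10 kb could change nothing, since the partners of a bin were at least 25 kb apart, and the eGFP-YAP sorbitol list is itself the shortest.

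With 4 or more loops for a hub there were 80, 23, 307 and 40 hubs, with 2.26%, 1.51%, 6.81% and 2.98% of loops. Gene starts then stood at 30.4% in wild-type sorbitol and 65.0% in eGFP-YAP sorbitol, and the motif at 59.3% in eGFP-YAP control and 17.5% in eGFP-YAP sorbitol. Partners on 1 side came to 92.5% in wild-type control and 27.5% in eGFP-YAP sorbitol. Of these hubs 37.1% of eGFP-YAP control were met with sorbitol, and 82.5% (wild-type control), 70.4% (eGFP-YAP control) and 82.5% (eGFP-YAP sorbitol) in the other line. With the upper 50% of each list by peak score there were 156, 61, 429 and 87 hubs, with 6.40%, 6.23%, 13.9% and 9.18% of loops. Gene starts were at 6.06% in eGFP-YAP control and 43.7% in eGFP-YAP sorbitol, and partners on 1 side at 91.7% and 87.4% of wild-type and eGFP-YAP control hubs. Hubs met in the other treatment came to 17.9% for wild-type control and 31.0% for eGFP-YAP sorbitol, and in the other line to 67.3%, 52.5% and 61.3% for the first 3 lists.

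In lists of 5577 loops the control lists had 82 and 143 hubs and 4.55% and 7.85% of loops, which turned the order of control and sorbitol in both lines. The motif was at 47.6% and 58.7% of these control hubs, gene starts at 8.54% in wild-type control, and partners on 1 side at 91.5% and 88.8%. Met in the other treatment were 40.6% of eGFP-YAP control, 22.6% of wild-type sorbitol and 22.8% of eGFP-YAP sorbitol hubs, and in the other line 65.9% and 56.6% of control hubs. Summed over 3 neighbouring bins there were 1891, 552, 3577 and 578 hubs, with 40.1%, 27.3%, 57.2% and 30.2% of loops, the motif at 35.9% and 46.7% of control hubs and gene starts at 42.9% in eGFP-YAP sorbitol.

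Matching bins within 5 kb gave 42.2% and 45.7% for control hubs met with sorbitol (wild type, eGFP-YAP), 62.0% and 65.8% for sorbitol hubs met in control, and 95.1%, 79.6%, 87.5% and 82.2% in the other line. Within 10 kb these were 49.3% and 50.2%, 73.9% and 73.5%, and 97.1%, 83.8%, 91.5% and 86.3%. Control hub loops called again with sorbitol came to 1.17% and 3.9% at identical bins and to 16.6% and 18.1% within 25 kb. Without a mismatch the motif was found in 12.2%, 4.23%, 16.3% and 9.59% of hubs and faced the partner at 94.8%, 94.7%, 92.9% and 85.7% of loop ends. In bins widened by 5 kb on each side the motif stood at 69.0%, 45.1%, 70.6% and 54.8% and gene starts at 15.7%, 55.6%, 20.1% and 65.8%. Starts of all gene types were in 16.4%, 50% and 16.6% of hubs of the first 3 lists. Leaving out hubs with no loop within 10 kb in the line's other list gave 63.8% on 1 side in wild-type sorbitol. The settings for the side of the partners with shortened lists, the upper scores and hubs left out were chosen after seeing the data.

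No list carries replicates and the reads behind each are unknown, so no difference has a replicate check, and a bin without a called loop was not shown to lack contacts. The cause of each move was not tested. No paired analysis was possible because each condition has a single pooled list.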

Other observations

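Chromosome 19, which has the most protein-coding genes per Mb, held 3, 2, 37 and 28 hubs (wild-type control, wild-type sorbitol, eGFP-YAP control, eGFP-YAP sorbitol), so that eGFP-YAP sorbitol had 0.478 hubs per Mb there. These were 0.581%, 0.439%, 5.22% and 4.78% of its anchor bins, against 2.07%, 1.34%, 4.77% and 2.26% of all anchor bins. The share was thus lower than over all bins in both wild-type lists. In eGFP-YAP sorbitol chromosome X had a higher share, 5.45%. Hubs with the starts of 2 or more protein-coding genes numbered 0, 11, 10 and 31, and eGFP-YAP sorbitol had the largest share (14.2%, 10.2% to 19.4%). The ETS letters CCGGAAG, on either strand, occurred in 13.5%, 28.2%, 17.7% and 41.6% of hub bins, in 14.4%, 22.2%, 15.0% and 22.8% of bins with 1 loop and in 10.6% of all bins of the genome, beside the median GC content of 42.7%, 48.6%, 42.8% and 52.9%. The wild-type intervals took in the shares of bins with 1 loop, and the part of base composition was not tested. The letters GGAATG of TEAD factors, through which YAP binds DNA, occurred in 94.5%, 94.4%, 93.5% and 93.2% of hubs and 93.2% of all bins.

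Among replication-dependent histone genes H2AC4 and H3C2 started in hubs of eGFP-YAP control alone. Over all protein-coding genes 0.160%, 0.356%, 0.596% and 0.761% started in a hub. An empty list of 53 genes, or 0.394% of the ZNF genes in each list, is therefore near the background. None of 53 clustered protocadherin genes started in a hub of any list, and of 400 olfactory receptor genes OR2H2 did so in wild-type control. Of 508 ZNF genes, ZNF503 and ZNF703, ZNF180 and ZNF862, ZNF843 and ZNF846, and ZNF225 and ZNF274 started in hubs of the 4 lists. Of 78 developmental transcription factors it was FOXC2, then FOXC1 and MEIS2, then MEIS1 and TFAP2B, and none in eGFP-YAP sorbitol. These were 1.28%, 2.56% and 2.56% of the list, above the share of all genes, but they rest on 1 or 2 genes per list.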
